A study of Homo sapiens with 4 samples.

Results

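The genes described here encode the protein machinery of pre-mRNA splicing: the core proteins of the small nuclear ribonucleoproteins (snRNPs), the splicing factor 3 (SF3) subunits with the U2 auxiliary factors and SF1, the PRPF proteins, the SR proteins with TRA2A and TRA2B, and the heterogeneous nuclear ribonucleoproteins (hnRNPs). Members were chosen by symbol, as probe sets that name 1 gene whose symbol starts with SNRP, SF3A, SF3B, PRPF, SRSF or HNRNP, or is U2AF1, U2AF2, SF1, TRA2A or TRA2B. The rule itself uses no measured value, but earlier results of these data were known when it was set. It gave 195 of the 54675 probe sets on the array, for 66 genes. They fell into 12 SNRP genes, 12 genes of the SF3, U2AF and SF1 family, 11 PRPF genes, 12 SR protein genes and 19 HNRNP genes. A pseudogene, HNRNPA3P1, and the non-coding RNAs HNRNPD-DT and SNRPF-DT matched by letters and were left out. SRSF2, SRSF9 and HNRNPH2 had probe sets only beside other genes and were not analysed here.

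The cells were HEK293, an established human embryonic kidney line, and all 4 cultures carried the same line, medium (DMEM), serum supplement (10% FCS) and culture time (7 days). High glucose cultures (2 arrays) had 450 mg/dl and low glucose cultures (2 arrays) had 100 mg/dl, and the design text calls each array a biological replicate. The comparison asked which transcripts differ between the glucose levels. It rests on 1 transformed line, with no untreated or osmotic control among these arrays. Whole-culture RNA was measured, so fewer cells of a type and less RNA per cell cannot be told apart.

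Pre-mRNA splicing is carried out by the spliceosome, which assembles anew on each intron. The U1 snRNP recognises the 5′ splice site, SF1 and the U2 auxiliary factors mark the branch point and the 3′ splice site, and the U2 snRNP, through SF3, takes over the branch point. A tri-snRNP of U4, U6 and U5 then joins, and rearrangements, many of them driven by helicases, form the catalytic centre. SR proteins mostly promote and hnRNPs often repress the use of nearby splice sites. Many of these genes also regulate their own transcripts through exons that mark the RNA for decay, so one gene can give several RNA forms.

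The values were Affymetrix signal intensities, 1 per probe set and array, deposited after scaling of each array to a trimmed mean of 200.02. Median signals ran from 33.3 to 38.7. Correlations of log2 signal were taken over the 12242 genes tested below, each by its brightest probe set. Replicate arrays correlated at 0.990 (high glucose) and 0.989 (low glucose), against 0.929 to 0.931 between groups. The 24 probe sets of the poly-A spikes, transcripts added during preparation, were higher in high glucose by a median of 1.94 log2 units (3.84-fold), with both high arrays above both low arrays for 24 of 24. The 6 ribosomal RNA probe sets were higher by 1.73 log2 units (3.31-fold), with 5 separated. The median signal of the 18 hybridisation controls was 486 on high array 1, against 875, 869 and 891 on high array 2, low array 1 and low array 2. Without high array 1, 32 members rose and 5 fell, beside 31 and 12 with it. By the brightest probe set, only 1 splicing gene described here, HNRNPL, rose by more than the spike median, as did 42 genes in all. A dimmer probe set of SRSF6, 206108_s_at, also did, at 2.88. The part of these control differences in the results below was not tested. The neurofilament gene NEFL, long known from HEK293 cells, read 1354 and 1179 in high glucose against 1442 and 1352 in low glucose, with overlap, and was not called, while NEFM and INA lay below the filter given below. Other line markers moved: PAX8 (-0.88 ± 0.14) and EYA1 (-1.01 ± 0.31) were lower in high glucose and LHX1 (1.45 ± 0.32) was higher, while PAX2 was not called (-0.37 ± 0.32). The epithelial keratins KRT8 and KRT18 both rose, and their summed signal was 13860.4 and 16268 in high glucose against 7139 and 7207 in low glucose. Of the haematopoietic and hepatocyte markers with a probe set, 0 of 3 and 0 of 3 passed the filter. Of the endothelial markers, 1 of 3 passed and was not called. Of 4 fibroblast markers, only COL1A1 passed and rose. The summed fibroblast signal was 361 to 362 in high glucose and 262 to 268 in low glucose, with COL1A2, DCN and LUM below the filter. The part of these markers in the results was not tested.

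Splicing factor genes were called higher in high glucose more often than lower. Probe sets whose mean log2 signal was at or above the median of all, equal to a signal of 32.9, were tested, and each gene was represented by its brightest probe set. Other probe sets of a gene take their values from a second fit over all 27307 probe sets. This left 172 probe sets and 65 genes of the members, among 12242 genes in all. Differences are log2 high minus low glucose with the standard error (SE) of the limma fit, n = 2 arrays per group, and a gene was called at a Benjamini-Hochberg adjusted p under 0.05 over all genes. Of the 65 genes, 31 rose, 12 fell and 22 did not pass. Over all genes, 24.3% were called higher, 33.3% lower and 57.6% in either direction, against 47.7% and 18.5% of the members. The members' median difference was 0.18, beside -0.10 over all genes. At least 1.5-fold rises were called for 12 members and falls for 1, HNRNPA1. Both high arrays lay above both low arrays for 36 members (55.4%) and below them for 15 (23.1%). The same held for 33.6% and 46.2% of all genes.

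The rises kept their calls under other settings more often than the falls. Of the 31 rises, 17 kept direction and call under each alternative that gave them a value, and of the 12 falls, 0 did. Those 17 were 6 SNRP genes, HNRNPA3, HNRNPL, PRPF3, PRPF4, PRPF38B, SF3A2, SF3A3, SF3B4, SRSF6, SRSF7 and TRA2A. Centring each array on its median, which moved the all-gene median from -0.10 to 0.07, left 35 rises and 2 falls, so that rises made up 94.6% of calls in place of 72.1%. Over all genes that share went from 42.1% to 58.8%. The 2 falls left were HNRNPA1 and SF1. The count of falls was also 5 without high glucose array 1, 7 without low glucose array 1 and 4 without low glucose array 2.

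**Figure D1:**
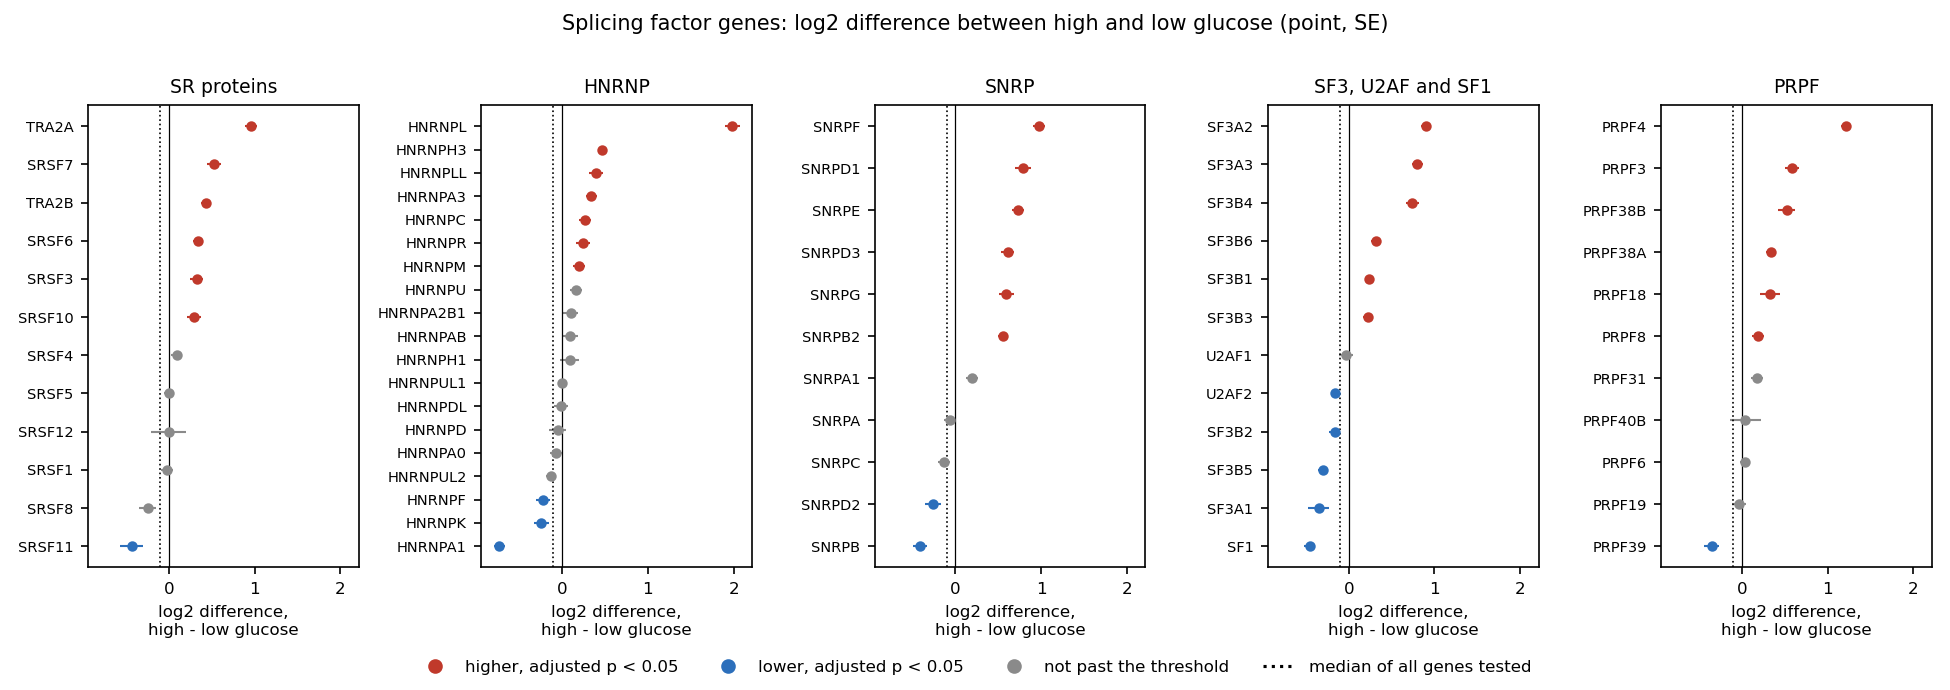
Log2 difference (high minus low glucose, horizontal axis) of the 65 tested genes, in 5 panels by family. Points are estimates of the limma fit and bars their SE, with red for called higher, blue for called lower and grey for not called, and the dotted line is the median of all genes (-0.10). HNRNPL stands at 1.99, and the SNRP panel has 5 of 11 genes past a 1.5-fold rise.

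Promoter sequence is shown for 5 genes that rose and for SNRPB, which fell, so that genes moving together or apart can be read side by side. Each is the 250 bases before the RefSeq start on GRCh38.p14, read on the gene's own strand, 5′ to 3′. SNRPF is at chr12:95858702-95858951 (plus), SNRPD3 at chr22:24555400-24555649 (plus), SNRPB at chr20:2470790-2471039 (minus), PRPF4 at chr9:113275408-113275657 (plus), SF3A2 at chr19:2236574-2236823 (plus) and HNRNPL at chr19:38852348-38852597 (minus). Capitals mark matches on either strand to GGGCGG (the GC box), CCAAT (the CCAAT box), CCGGAAGT (a core of ETS factor sites) or CACGTG (an E-box), and 0 of these matches overlapped.
SNRPF: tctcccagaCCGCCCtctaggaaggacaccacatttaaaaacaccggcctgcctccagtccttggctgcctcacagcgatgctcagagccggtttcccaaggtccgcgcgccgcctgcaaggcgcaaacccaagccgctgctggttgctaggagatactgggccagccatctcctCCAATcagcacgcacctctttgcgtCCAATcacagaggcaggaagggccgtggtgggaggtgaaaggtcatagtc
SNRPD3: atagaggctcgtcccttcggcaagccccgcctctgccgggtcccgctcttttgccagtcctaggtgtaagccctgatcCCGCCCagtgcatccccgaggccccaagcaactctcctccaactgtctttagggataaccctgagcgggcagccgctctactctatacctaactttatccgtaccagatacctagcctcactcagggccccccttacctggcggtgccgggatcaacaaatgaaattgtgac
SNRPB: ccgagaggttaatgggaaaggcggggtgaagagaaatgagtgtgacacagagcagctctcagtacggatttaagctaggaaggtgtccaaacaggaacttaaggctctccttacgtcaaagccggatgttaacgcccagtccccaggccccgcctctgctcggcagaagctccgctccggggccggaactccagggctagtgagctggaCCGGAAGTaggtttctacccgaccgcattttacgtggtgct
PRPF4: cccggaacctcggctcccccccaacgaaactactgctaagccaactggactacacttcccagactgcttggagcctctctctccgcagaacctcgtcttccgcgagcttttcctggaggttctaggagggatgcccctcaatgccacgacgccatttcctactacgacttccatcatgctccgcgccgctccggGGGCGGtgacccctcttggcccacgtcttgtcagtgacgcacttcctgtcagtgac
SF3A2: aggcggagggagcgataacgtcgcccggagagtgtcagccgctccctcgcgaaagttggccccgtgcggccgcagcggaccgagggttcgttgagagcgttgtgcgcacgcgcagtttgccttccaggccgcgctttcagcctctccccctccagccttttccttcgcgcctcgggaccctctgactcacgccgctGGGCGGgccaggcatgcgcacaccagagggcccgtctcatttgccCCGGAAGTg
HNRNPL: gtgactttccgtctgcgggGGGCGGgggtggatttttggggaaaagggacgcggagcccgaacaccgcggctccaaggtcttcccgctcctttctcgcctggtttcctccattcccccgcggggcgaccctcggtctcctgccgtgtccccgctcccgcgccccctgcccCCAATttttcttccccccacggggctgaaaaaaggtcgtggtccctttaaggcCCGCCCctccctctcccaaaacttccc
SNRPF held 2 CCAAT matches, HNRNPL held 2 GC boxes and 1 CCAAT match, and CCGGAAGT was found in SNRPB, which fell, and in SF3A2, which rose. For counts, windows of protein-coding genes were kept where they adjoin the outer end of the annotated gene. Across the 54 members with such a window, GGGCGG was in 33 (61.1%), CCAAT in 25 (46.3%), CCGGAAGT in 13 (24.1%) and CACGTG in 6 (11.1%). Over all 13820 such windows the shares were 56.0%, 35.2%, 5.33% and 7.87%. CCGGAAGT was in 4 of the 25 matched genes that rose and 4 of the 9 that fell. CCAAT was in 11 of 25 and 3 of 9, GGGCGG in 16 of 25 and 5 of 9, and CACGTG in 4 of 25 and 0 of 9. These are matches of letters and not tested sites.

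Among the snRNP proteins, members of the Sm ring moved in opposite directions. The ring holds 7 proteins (B, D1, D2, D3, E, F and G) around the snRNA of U1, U2, U4 and U5. Genes for 5 of them rose and those for B and D2 fell. SNRPF, whose protein sits beside E in the ring, read 4499.6 and 4776 in high glucose against 2463 and 2251 in low glucose. Its arrays did not overlap, and the difference was 0.98 ± 0.07 (SE), 1.97-fold, with an adjusted p of 2.7e-05. SNRPD1, which pairs with D2, read 3335 and 4039 in high glucose against 2058 and 2203 in low glucose. It rose by 0.79 ± 0.09 (SE), 1.72-fold, with an adjusted p of 3.0e-04, and the spread of the high arrays was wider than that of the low. SNRPE read 5584 and 6137 in high glucose against 3605 and 3455 in low glucose, a clear separation. Its difference was 0.73 ± 0.07 (SE), 1.66-fold, with an adjusted p of 1.2e-04. SNRPD3, the partner of B, read 5107 and 5764 in high glucose against 3457 and 3656 in low glucose, with no overlap. This was a rise of 0.61 ± 0.08 (SE), 1.53-fold, with an adjusted p of 4.3e-04. SNRPG, which completes the E, F and G subcomplex, read 6188 and 7143 against 4482 and 4326 in the same order and differed by 0.59 ± 0.08 (adjusted p = 7.1e-04). For SNRPD1 and SNRPE a second tested probe set also rose, by 0.52 and 0.85.

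The falls were smaller and less firm. SNRPB, which encodes the B and B′ proteins, read 7875 and 8585 in high glucose against 10586 and 11299 in low glucose. Both high arrays lay below both low arrays, and the difference was -0.41 ± 0.09 (SE), 1.33-fold lower, with an adjusted p of 0.0046. Its second probe set gave -0.39 ± 0.11 (adjusted p = 0.022). The call was lost on median centring (-0.24, adjusted p = 0.114), on quantile normalization (-0.02, adjusted p = 0.76) and without low glucose array 2 (adjusted p = 0.068). SNRPD2 read 6989 and 8119 in high glucose against 8979.8 and 9133 in low glucose, again separated. It fell by 0.27 on the log2 scale (adjusted p = 0.039). Quantile normalization turned it to 0.03, and median centring or leaving out high array 1, low array 1 or low array 2 ended the call.

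Of the tested SNRP genes for proteins particular to U1 or U2, SNRPB2 rose and the others did not pass. The SF3 genes of the U2 snRNP are given below. SNRPB2, whose protein binds a stem-loop of U2 snRNA, read 4264 and 4358 in high glucose against 2878 and 2997 in low glucose and rose by 0.55 ± 0.06 (adjusted p = 1.9e-04). Its partner on the same loop, encoded by SNRPA1, read 2866 and 3226 against 2629.7 and 2699 and did not pass at 0.19 ± 0.07 (adjusted p = 0.052). A dimmer SNRPA1 probe set, 242146_at, read 349.8 and 345 against 126 and 121 and rose by 1.49 ± 0.11 (adjusted p = 5.1e-05), while the other two lay at 0.15 and 0.02. The U1-specific proteins encoded by SNRPA and SNRPC gave -0.06 ± 0.07 and -0.14 ± 0.07, and neither was called. SNRPN, an imprinted gene whose product replaces B in neurons, had 1 probe set of its own. That probe set was below the filter, at 28.6 and 16.2 in high glucose against 7.96 and 12.4 in low glucose, and was not tested. SNRPN was also named beside other genes on probe sets not used here, so its level is not known from these values. By family, 6 of the 11 tested SNRP genes rose, 2 fell and the median was 0.55, the highest of the 5 families.

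**Figure D2:**
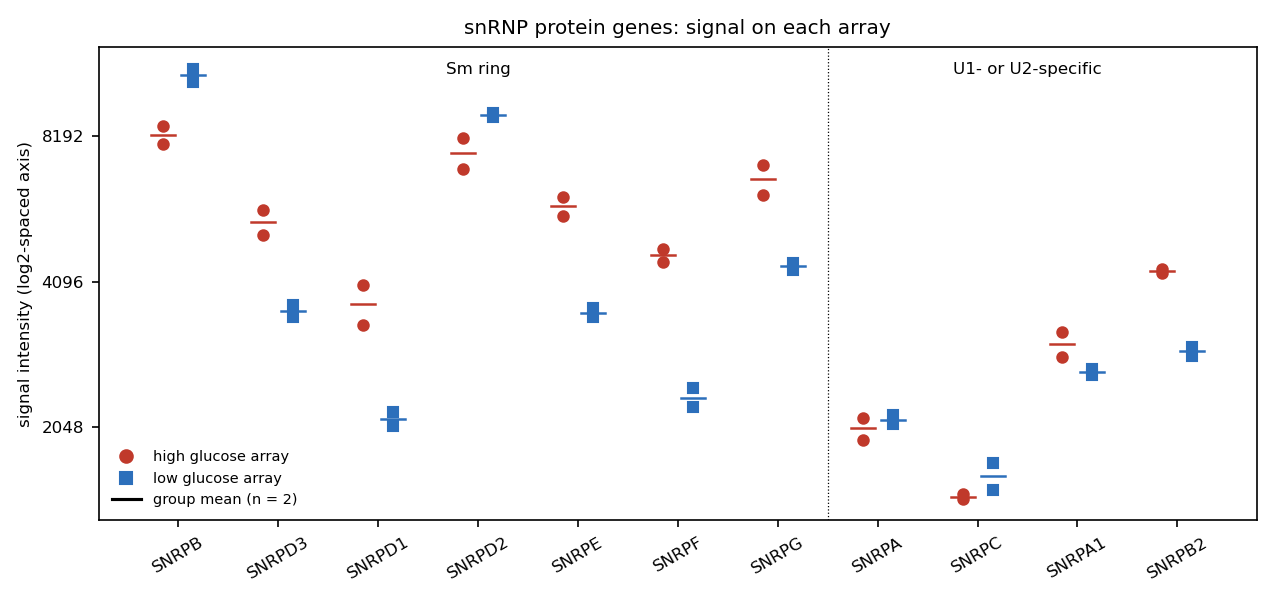
Signal intensity of the tested SNRP genes on each array (vertical axis with log2 spacing), with red circles for high and blue squares for low glucose and short lines for group means (n = 2). For SNRPD3, SNRPD1, SNRPE, SNRPF, SNRPG and SNRPB2 the circles lie above the squares, and for SNRPB and SNRPD2 below them.

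The branch point machinery also split. SF3A, 3 subunits, and SF3B, a larger complex around SF3B1, together form the part of the U2 snRNP that holds the branch point. SF3A2 read 1120.3 and 1051 in high glucose against 585 and 576 in low glucose. Its arrays were well apart, with a rise of 0.90 ± 0.06 (SE), 1.87-fold, with an adjusted p of 2.5e-05, and its second probe set rose by 0.47. SF3A3 read 851 and 903 in high glucose against 496 and 509.7 in low glucose, and rose by 0.80 ± 0.07 (SE), 1.74-fold, with an adjusted p of 5.0e-05. SF3A1, the largest SF3A subunit, read 1504 and 2036 in high glucose against 2237 and 2230.0 in low glucose. It fell by 0.35 on the log2 scale (adjusted p = 0.043), with high array 1 well below high array 2. The call ended without high array 1, low array 1 or low array 2, and on median centring. In the fit over all probe sets this SF3A1 probe set was not called (adjusted p = 0.054). The nearly as bright SF3A1 probe set 216457_s_at was level (0.001, not called). Of the dimmer ones, 201357_s_at was not called (0.10) and 227516_at fell (-0.27 ± 0.08, adjusted p = 0.027). Within SF3B, SF3B4 read 1722 and 1526 in high glucose against 943 and 997 in low glucose. It rose by 0.74 ± 0.07 (SE), 1.67-fold, with an adjusted p of 1.2e-04. SF3B6, which touches the branch point adenosine, rose by 0.32 ± 0.06 (adjusted p = 0.0033). SF3B1, the scaffold that is often mutated in myelodysplasia, differed by 0.24 ± 0.06, and SF3B3 by 0.22 ± 0.06. Both were called higher, and both calls ended without low array 1, that of SF3B3 also without high array 1. The small subunit SF3B5 read 2888 and 2776 in high glucose against 3492 and 3477 in low glucose and fell by 0.30 (adjusted p = 0.0033), a call lost on median centring (adjusted p = 0.237). SF3B2, the partner of SF3B4, differed by -0.17 ± 0.06 (adjusted p = 0.045), a call lost without any 1 array, and median centring put it at 0.00. In the fit over all probe sets SF3B2 was not called either (adjusted p = 0.059).

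SF1, which holds the branch point before U2 arrives, gave the largest fall of this family. It read 2161 and 2388 in high glucose against 3138 and 3098 in low glucose, without overlap, and the difference was -0.46 ± 0.07 (SE), 1.37-fold lower, with an adjusted p of 8.2e-04. A much dimmer second probe set, 210172_at, rose from low to high glucose, at 126 and 119 against 60.7 and 63.3, a difference of 0.98 ± 0.18 (adjusted p = 0.0036). The SF1 call held under the settings that keep the brightest probe set and reversed with the mean of both (0.26). U2AF2, the large subunit that binds the polypyrimidine tract, differed by -0.16 ± 0.06 (adjusted p = 0.045), and its call was lost without any 1 of the 4 arrays. Its brightest probe set was not called in the fit over all probe sets (adjusted p = 0.060). Its other tested probe set, 218382_s_at, read 460.2 and 452 in high glucose against 335 and 296 in low glucose and rose by 0.54 ± 0.09 (adjusted p = 0.0023). The mean of both was 0.19, and median centring put the brightest at 0.01, so the direction turned under these settings. U2AF1, which reads the AG at the end of the intron, read 3111 and 3266 against 3515 and 3041, with overlap, and did not pass. In all 6 of 12 genes rose and 5 fell, with a median of 0.09. Without high array 1, low array 1 or low array 2 the falls numbered 2, and without high array 2 they numbered 3. On median centring 1 fell, with the mean of probe sets 1 fell, and without probe sets ending in _x_at or _s_at, which left 8 genes, 3 rose and 2 fell.

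PRPF genes, named after yeast pre-RNA processing mutants, mostly rose or did not pass. PRPF4 and PRPF3 encode partners in the U4/U6 snRNP, and mutations in PRPF3, PRPF4, PRPF6, PRPF8 and PRPF31 cause retinitis pigmentosa. PRPF4 read 1609 and 1553 in high glucose against 702 and 665 in low glucose. The groups were far apart, the rise was 1.21 ± 0.06 (SE), 2.31-fold, with an adjusted p of 6.8e-06, and its second probe set rose by 0.96 ± 0.06. PRPF3 read 558 and 550.0 in high glucose against 389 and 351 in low glucose. It rose by 0.59 ± 0.08 (SE), 1.5-fold, with an adjusted p of 6.3e-04. PRPF31, the third U4/U6 protein of the set, read 1369 and 1522 against 1282 and 1272, separated but not called (0.18, adjusted p = 0.053). Its dimmer 202407_s_at read 535 and 544 against 476 and 403 and was called higher (0.30 ± 0.09, adjusted p = 0.032). PRPF8, a U5 protein and the large scaffold of the catalytic centre, differed by 0.19 ± 0.07 (adjusted p = 0.045), called but lost without high array 1, high array 2 or low array 1. It was not called in the fit over all probe sets (adjusted p = 0.059). PRPF6, which bridges U5 to U4/U6, lay at 0.03 ± 0.06 and was not called.

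PRPF38B and its relative PRPF38A, a protein of the spliceosome near activation, rose by 0.52 ± 0.10 and 0.34 ± 0.06 (adjusted p = 0.0031 and 0.0015). PRPF38B read 446 and 467 against 345 and 293, and its other probe set rose as well (0.77). PRPF38A read 1044 and 1064 against 834 and 829, and 223230_at rose by 0.63, while 235612_at fell (-0.57 ± 0.13, adjusted p = 0.0094). PRPF18, a factor of the second catalytic step, gave 0.33 ± 0.11 (adjusted p = 0.039), a call that ended without any 1 array. PRPF39, a U1-associated protein, read 354 and 384 in high glucose against 448 and 496 in low glucose and was the only PRPF gene called lower, at -0.35 ± 0.09 (adjusted p = 0.011). That call was lost without high array 1 or low array 2 and on median centring. PRPF19, a ubiquitin ligase of the activated spliceosome, and PRPF40B, a U1-linked WW domain protein, lay at -0.04 and 0.04 and did not pass. Of 11 genes 6 rose, 1 fell and the median was 0.19.

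**Figure D3:**
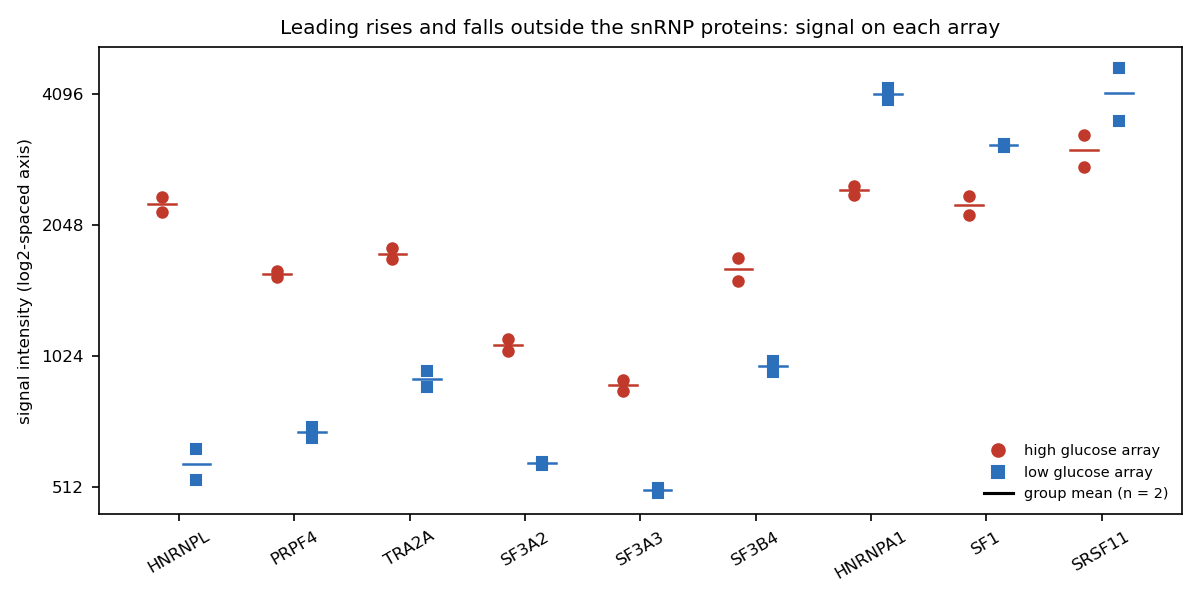
Signal intensity on each array (vertical axis with log2 spacing) of 9 genes outside the SNRP family, with red circles for high and blue squares for low glucose and short lines for group means (n = 2). The snRNP proteins of the title are the SNRP genes only. HNRNPL, PRPF4, TRA2A, SF3A2, SF3A3 and SF3B4 have both circles above both squares, and HNRNPA1, SF1 and SRSF11 below them.

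SR proteins carry RNA-binding domains and a tail rich in arginine and serine, and they bind exonic enhancers. In this family 6 of 12 genes rose, 1 fell and 5 did not pass, with a median of 0.19. TRA2A read 1812 and 1708 in high glucose against 867 and 944 in low glucose. No array of one group came near the other, and the rise was 0.96 ± 0.07 (SE), 1.94-fold, with an adjusted p of 2.4e-05. The other 3 tested TRA2A probe sets, all much dimmer, lay between 0.09 and 0.19 and were not called. TRA2B, the close relative of TRA2A that binds the same purine-rich enhancers, read 4877 and 4948 in high glucose against 3577 and 3687 in low glucose. It rose by 0.44 ± 0.06 (SE), 1.35-fold, with an adjusted p of 6.7e-04. SRSF7 read 4599 and 5155 in high glucose against 3246 and 3527 in low glucose, and rose by 0.53 ± 0.08 (SE), 1.44-fold, with an adjusted p of 9.7e-04. SRSF7 also serves, with SRSF3, as an adaptor for mRNA export. SRSF3, the smallest SR protein, rose by 0.33 ± 0.07 and SRSF10, a repressor when dephosphorylated, by 0.29 ± 0.08 (adjusted p = 0.0072 and 0.016). The SRSF3 call was lost without either low array, and that of SRSF10 without high array 1 or low array 1. SRSF11 was the only SR gene called lower, at 3294 and 2779.7 in high glucose against 3554 and 4690.0 in low glucose, with low array 2 far above low array 1. Its difference was -0.43 ± 0.13 (adjusted p = 0.026), no longer called without high array 2 or low array 2 or on median centring.

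Several SR genes that moved little by their brightest probe set had others that moved by far more. SRSF6 gave the widest gap. By its brightest probe set, 208804_s_at, it read 2251 and 2246 in high glucose against 1829 and 1721 in low glucose and rose by 0.34 ± 0.06 (adjusted p = 0.0017). By 206108_s_at it read 499 and 510.2 in high glucose against 65.4 and 71.5 in low glucose, with no overlap. That was a rise of 2.88 ± 0.12 (SE), 7.38-fold, with an adjusted p of 6.2e-06 in the probe set fit. SRSF3 showed the same order. Its brightest probe set differed by 0.33, and 208673_s_at read 2539.7 and 2512 against 1197 and 1066, a rise of 1.16 ± 0.07. Rises of 1.45 and 0.98 were called for 232392_at and 235324_at, and 202899_s_at was not called (0.10).

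SRSF1, the first SR protein described, had 8 tested probe sets and calls in both directions. The brightest, 211784_s_at, read 4798 and 5037 against 4759.9 and 5221, with overlap, and was not called (-0.02 ± 0.07). Rises were called for 226419_s_at (492 and 502 against 245 and 230.3, 1.06 ± 0.08), 239384_at (1.34 ± 0.25) and 229246_at (0.78 ± 0.23). Falls were called for 227164_at (375 and 371 against 506 and 475, -0.39 ± 0.08) and 201742_x_at (-0.22 ± 0.06). TRA2B and SRSF8 were divided too. TRA2B 210180_s_at read 262 and 269 in high glucose against 437 and 477 in low glucose and fell by 0.78 (adjusted p = 3.3e-04), while 200892_s_at rose with the brightest. SRSF8, a retrotransposed relative of SRSF2, had a rise at 228760_at (0.42 ± 0.08) and falls at 213152_s_at (-0.53 ± 0.07) and 238929_at (-0.52 ± 0.12), with its brightest not called (-0.25). SRSF5 was level at its brightest probe sets (-0.0026 and -0.01) and fell only at the dim 210077_s_at (-1.18 ± 0.29). SRSF4 and SRSF12 did not pass, at 0.09 ± 0.06 and -0.003 ± 0.21, and SRSF12 was dim, at 118 and 137 against 106 and 152. Dimmer SRSF4 probe sets rose at 242837_at (0.49 ± 0.10, adjusted p = 0.0062) and 239512_at (0.54 ± 0.16, adjusted p = 0.024). The dim SRSF4 probe set 239511_s_at was not called (0.10).

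Over all members, 73 of 172 probe sets were called higher and 26 lower, beside 23.1% higher and 27.2% lower of all probe sets (50.4% in either direction). Of the 48 members with at least 2 tested probe sets, 11 (22.9%) had probe sets called in opposite directions and 14 (29.2%) had differences more than 1 log2 unit apart. Over all 6255 such genes the shares were 8.87% and 20.5%. Members had more tested probe sets, a median of 3 against 2, and the part of that number in these shares was not tested. The opposite calls fell to 6 HNRNP genes, 3 SR genes, SF1 and PRPF38A, and to 0 of 4 SNRP genes. Which exons or ends of a transcript each probe set reads was not known here.

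**Figure D4:**
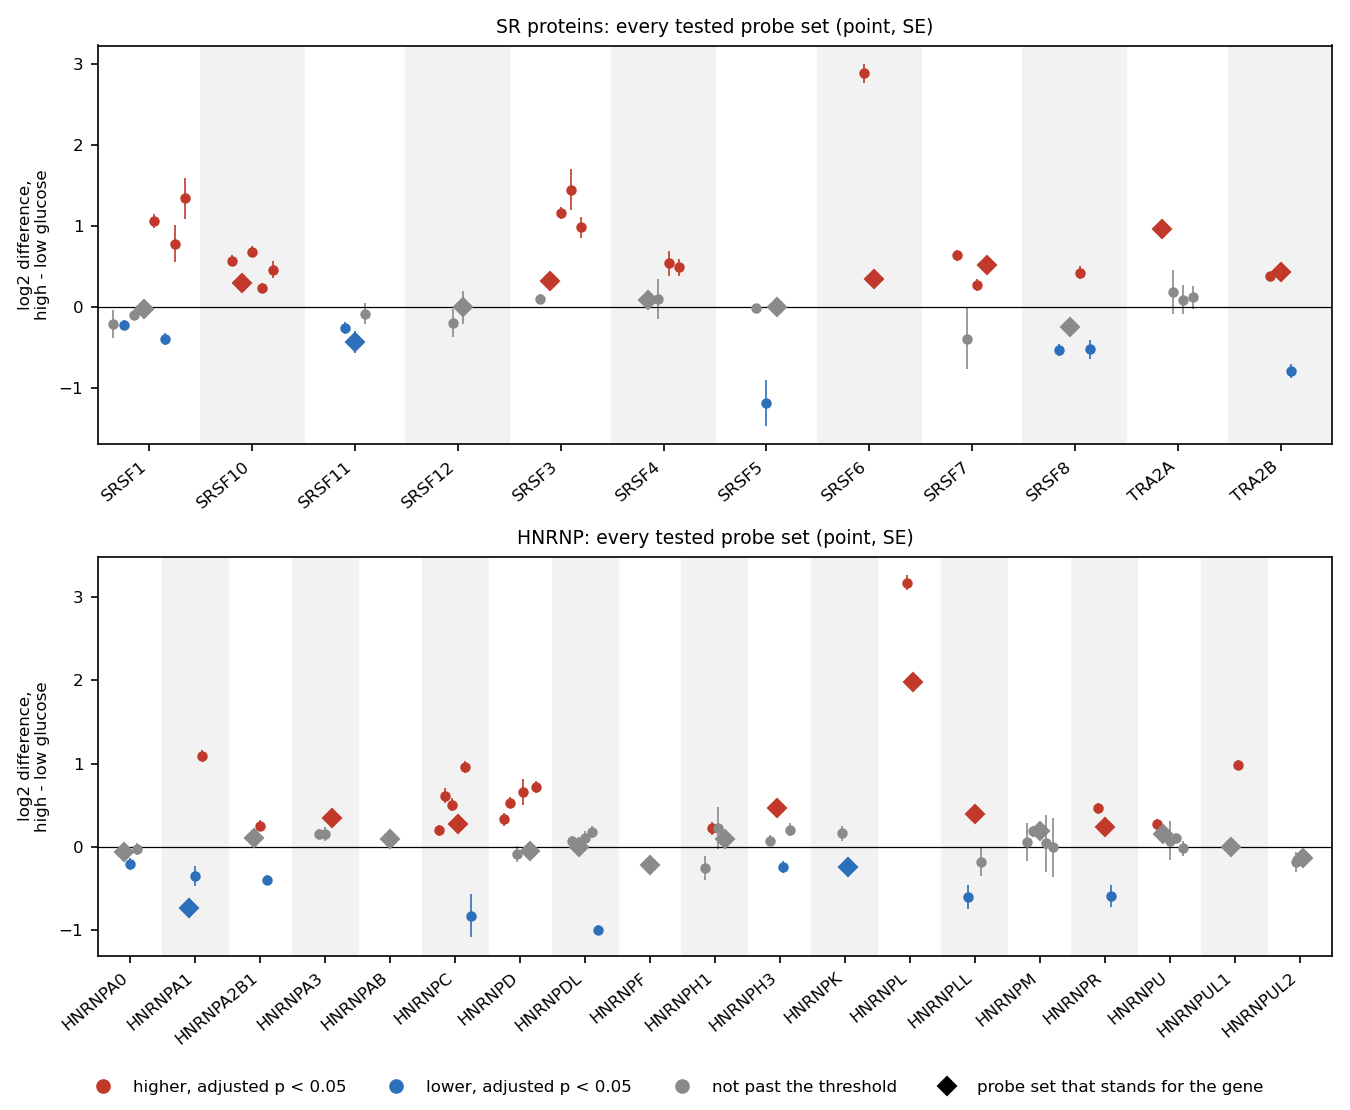
Log2 difference (high minus low glucose, vertical axis) of each tested probe set of the SR genes (upper panel) and HNRNP genes (lower panel), with SE as bars. Diamonds are the brightest probe set of a gene, and colours give the call over all probe sets (red higher, blue lower, grey none), so that HNRNPF and HNRNPM, called in the gene test, are grey. SRSF6 has a circle at 2.88 and a diamond at 0.34, and SRSF1 and HNRNPA1 have points called on both sides of 0.

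HNRNPL gave the largest difference of any member. It binds CA-rich elements, in exons and introns, and can act as an enhancer or silencer. Its signals were 2198 and 2375 in high glucose against 532 and 625 in low glucose. The groups were far apart, and the rise was 1.99 ± 0.09 (SE), 3.96-fold, with an adjusted p of 3.6e-06. The second probe set, 202072_at, read 1190.0 and 1300.2 in high glucose against 146 and 129 in low glucose. It rose further, by 3.18 ± 0.09 (SE), 9.05-fold, with an adjusted p of 1.6e-06. Its paralogue HNRNPLL, known for CD45 splicing in lymphocytes, read 753 and 649.9 in high glucose against 533 and 532 in low glucose and rose by 0.39 ± 0.08 (adjusted p = 0.00496). A dimmer HNRNPLL probe set, 225385_s_at, fell (-0.61 ± 0.15), and the mean over probe sets was -0.13 and not called.

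HNRNPA1, a classic antagonist of SR proteins that binds exonic silencers, gave the largest fall. Its brightest probe set, 214280_x_at, read 2400.4 and 2517 in high glucose against 3959 and 4228 in low glucose. The groups were apart, and the difference in the gene fit was -0.73 ± 0.06 (SE), 1.66-fold lower, with an adjusted p of 6.6e-05. The second, 221919_at, also fell (-0.35 ± 0.12). The third, 222040_at, read 683 and 662 in high glucose against 320.3 and 311 in low glucose and rose by 1.09 ± 0.07 (SE), 2.13-fold, with an adjusted p of 3.7e-05. The mean over the 3 was 0.00. Suffix _x_at marks probe sets that may bind related transcripts, and HNRNPA1 has many processed pseudogenes, so the direction for this gene is uncertain. HNRNPA2B1, its relative, was not called at its brightest probe set (0.10), rose at 225107_at (0.25) and fell at 225932_s_at (-0.40). HNRNPA3 read 1851 and 1723 in high glucose against 1439.7 and 1382 in low glucose and rose by 0.34 ± 0.06 (adjusted p = 0.0023).

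HNRNPH3, a relative of the G-run binding HNRNPF and HNRNPH1, read 3137 and 3128 in high glucose against 2209 and 2313 in low glucose and rose by 0.47 ± 0.06 (adjusted p = 3.3e-04), although 210110_x_at fell (-0.24). HNRNPC, which binds uridine tracts and guards against inclusion of Alu exons, was higher at 5 of 6 tested probe sets. Among these 227110_at rose by 0.96, and the dim 235500_at fell (-0.83). HNRNPR rose by 0.24 ± 0.08 and HNRNPM by 0.19 ± 0.07, and both calls ended without high array 2 or either low array. HNRNPR 232004_at read 167 and 144 against 243 and 226 and fell (-0.60 ± 0.13, adjusted p = 0.00704), and the gene took that value when probe sets ending in _x_at or _s_at were left out. The HNRNPC call at its brightest probe set ended without either low array. HNRNPK, which binds cytosine tracts, read 5675 and 6467 in high glucose against 6975 and 7380.1 in low glucose and was called lower at -0.24 ± 0.09 (adjusted p = 0.042). Its other probe set, 200097_s_at, read 3662 and 4297 against 3501 and 3604, separated in the opposite direction but not called (0.16 ± 0.09, adjusted p = 0.16). HNRNPF read 1612 and 1862 in high glucose against 2081 and 1966 in low glucose and was called lower at -0.22 ± 0.08 (adjusted p = 0.042). The calls for HNRNPK and HNRNPF were lost on median centring, with the mean of probe sets and without high array 1 or either low array. Calls not made by the brightest probe set included HNRNPDL 212454_x_at, which fell by 1.01 (1003 and 1055 against 2028 and 2105), and HNRNPUL1 209675_s_at, which rose by 0.99 (1788 and 1886 against 919 and 932). HNRNPD was not called at its brightest probe set (-0.05). Of its 6 tested probe sets 4 were called higher, at 0.33, 0.53, 0.66 and 0.72, and 0 lower. Of 19 genes, 7 rose, 3 fell and 9 did not pass, and the median was 0.09. Without low array 1, and likewise without low array 2, 4 rose, and 1 fell without high array 1, low array 1 or low array 2. With the mean of probe sets 0 fell in the limma fit (1 at an unadjusted p under 0.05), and on median centring 1 fell.

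Genes of the pathway outside these families were grouped by role. The shares over all genes to set beside each list were 24.3% called higher and 33.3% called lower. For the 17 genes that build and import snRNPs, 13 rose and 0 fell in the limma fit, with a median of 0.47. The lowest difference of the list was -0.62, which was not called. At an unadjusted p under 0.05 the counts were also 13 and 0, and without high array 2 there was 1 fall. GEMIN6, of the SMN complex that loads the Sm ring, read 1051 and 924 in high glucose against 446 and 502 in low glucose and rose by 1.06 ± 0.09 (SE), 2.08-fold, with an adjusted p of 5.7e-05. GEMIN5, which recognises the snRNA, rose by 1.04 ± 0.14, TGS1, which hypermethylates its cap, by 0.83 ± 0.08, the cap-binding NCBP1 by 0.77 ± 0.10 and PRMT5, which methylates Sm proteins, by 0.57 ± 0.06. These 4 fall outside the naming rule and were picked with their values in view. Of 29 other snRNP and LSM proteins, 16 rose and 3 fell, with a median of 0.24. The minor spliceosome protein ZCRB1 rose most (0.86 ± 0.06), and USP39, of the tri-snRNP, was lower (-0.27 ± 0.08), a call lost without high array 2 or low array 1. Without either of those arrays the falls numbered 1, and on median centring 0 fell in the limma fit (0 also at an unadjusted p under 0.05).

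Kinases of SR proteins mostly fell. In the list of 12 kinases, phosphatases and import factors that handle SR proteins, 3 rose and 8 fell, with a median of -0.40. CLK1, a nuclear kinase that releases SR proteins from speckles, read 235 and 277 in high glucose against 507 and 467 in low glucose and differed by -0.93 ± 0.11 (SE), 1.91-fold lower, with an adjusted p of 2.4e-04. Its relatives CLK4 (-0.86 ± 0.08), CLK2 (-0.67 ± 0.06) and CLK3 (-0.62 ± 0.11), picked with their values in view, also fell. SRPK1, the cytoplasmic kinase that readies SR proteins for import, read 2032 and 2172 in high glucose against 1716 and 1655 in low glucose and rose by 0.32 ± 0.06 (adjusted p = 0.00297), but the mean of its probe sets was -0.01. The falls of the list numbered 5 on median centring, 5 with no intensity trend and 5 without low array 2, and all 4 CLK genes stayed called on median centring. Without probe sets ending in _x_at or _s_at only 5 genes of the list could be tested, of which 2 fell. CLK1, CLK2 and CLK3 had no other tested probe set, and CLK4 lay at -0.996 there. With the mean of probe sets 1 gene of the list rose.

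In the remaining lists the directions were mixed. Over all genes 24.3% were called higher and 33.3% lower. The shares were 27.3% and 27.3% for the helicases, 23.3% and 26.7% for other splicing regulators, and 22.2% and 44.4% for the exon junction list. On median centring 4052 of all 12242 genes were called higher and 2835 lower. Among 21 Prp19 complex and catalytic step factors, 9 rose and 4 fell (median 0.13). XAB2 rose by 0.84 ± 0.13, and SYF2 fell (-0.52 ± 0.06), a call lost with the mean of its probe sets (-0.22) and turned without those ending in _x_at or _s_at (0.09, not called). The falls numbered 2 without high array 1 and 1 on median centring. The 11 spliceosomal helicases split into 3 and 3 (median -0.03), with DDX46, which acts at the branch point, higher (0.74 ± 0.12) and DDX5 lower (-0.80 ± 0.10). On median centring 5 helicases rose. Of 27 SR-related and U1- or U2-associated factors, 10 rose and 6 fell (median 0.11), among them LUC7L (0.68 ± 0.12) and PNN (-0.72 ± 0.06), the latter positive (0.57) in the mean of its probe sets. Without low array 1 the rises numbered 6. Without probe sets ending in _x_at or _s_at 17 genes were tested and 0 fell in the limma fit (1 at an unadjusted p under 0.05). For 30 other splicing regulators, 7 rose and 8 fell (median 0.07), and 16 rose on median centring. PTBP3, a polypyrimidine tract binding protein, read 1494 and 1515 in high glucose against 738 and 754 in low glucose and rose by 1.01 ± 0.06. KHDRBS3 fell (-1.19 ± 0.24). Of 9 exon junction and nonsense-mediated decay genes, 2 rose and 4 fell (median -0.12), and on median centring 2 fell. MAGOHB, of the exon junction core, rose by 1.16 ± 0.10, and SMG9 fell (-1.16 ± 0.13).

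**Figure D5:**
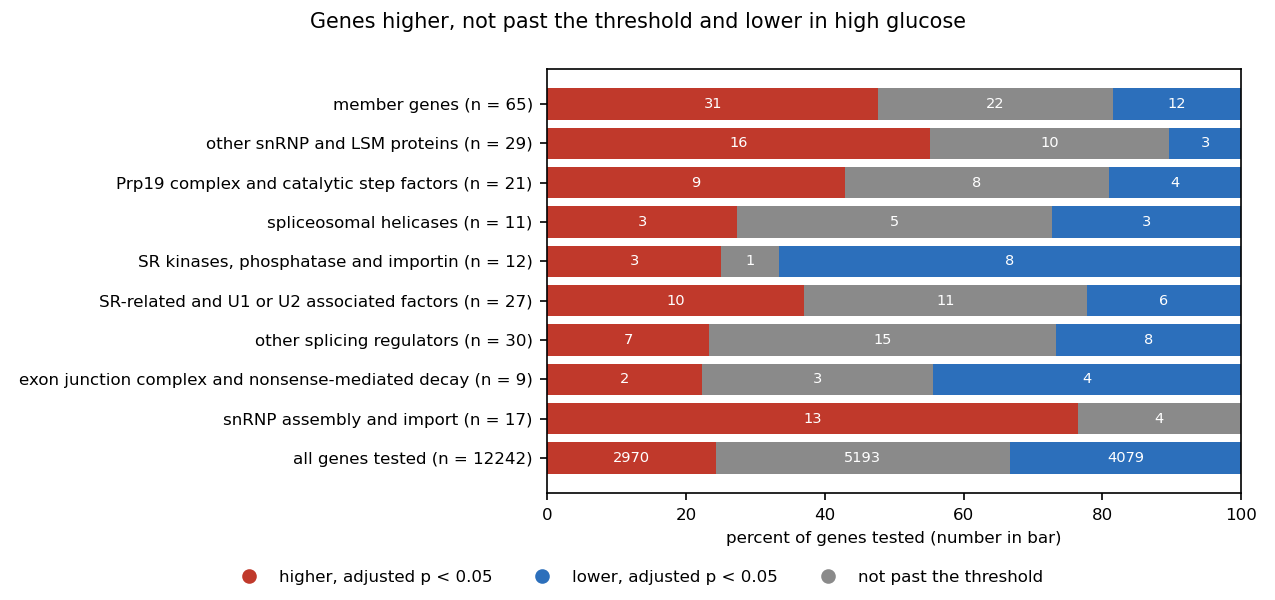
Percent of tested genes (horizontal axis) called higher (red), not called (grey) and called lower (blue) in high glucose, with the number in each bar, for the member genes, 8 lists of other splicing genes and all genes tested. The snRNP assembly list has 13 red and 0 blue of 17, and the SR kinase list has 3 red and 8 blue of 12.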

How the data were processed

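Each of the 4 arrays, high glucose and low glucose with 2 each, was a single-colour Affymetrix expression array. The authors deposited signal intensity on a linear scale, and GCOS, software for Affymetrix arrays, is the 1 tool listed in the submitters' processing notes, with no version. Tested on the values, the arrays had been scaled to one trimmed mean, which hides a shift common to most transcripts. Their other steps were not given.

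The 62 control probe sets were left out. GEO's platform annotation gave 1 gene for 41097 probe sets, several for 1801 and none for 11777. Only the first were named, 41043 of them matched to RefSeq on GRCh38.p14. Signals were log2-transformed without a pseudocount. Probe sets with a mean log2 signal at or above the median were kept (27307), and each gene took its brightest (12242 genes). limma 3.58.1 in R 4.3.3 (lmFit, eBayes with an intensity trend, two-sided p-values, Benjamini-Hochberg adjustment, threshold 0.05) compared the groups with no covariate, once over genes and once over probe sets. The script was tested on simulated data. Per family, the 4 largest rises and falls that passed with non-overlapping arrays were named, and 1 of each per other list. Members with opposite probe set calls, and those not past the threshold in families with at most 8 such genes, were named too. SRSF, HNRNP and PRPF genes outside this rule, HNRNPDL, HNRNPUL1, CLK2 to CLK4, GEMIN5, TGS1, NCBP1 and PRMT5 among them, were picked with their values in view. The members and lists were chosen with earlier results of these data known. Alternatives covered normalization, filter, pseudocount, intensity trend, probe set choice, replicate block and leaving out each array. The number of arrays limits the precision.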

Additional observations from a re-analysis of the deposited data

How the results depend on the processing

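The 31 rises of member genes stayed within 22 to 35 under the 13 alternatives, and the 73 rises of member probe sets within 57 to 92 under the 11 that apply to them. The 12 falls numbered 7 with the mean of a gene's probe sets, 2 on median centring, 6 with no filter, 5 with no intensity trend and 7 without probe sets ending in _x_at or _s_at. Leaving out each array gave 4 to 10 falls and 22 to 32 rises. The 26 falling probe sets numbered 10 on median centring, 17 with no filter and 13 with no intensity trend, and 14 to 24 on leaving out each array, with 63 to 72 rises. With 1 array left in a group, that array is assumed to vary like the other group.

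Directions turned mainly with the probe set chosen. With the mean over probe sets, the log2 difference was 0.000785 for HNRNPA1, 0.35 for HNRNPD, -0.13 for HNRNPLL, 0.57 for PNN, 0.26 for SF1, -0.0141 for SRPK1, 0.28 for SRSF1 and 0.19 for U2AF2. Without _x_at and _s_at probe sets it was 1.09 for HNRNPA1, 0.66 for HNRNPD, -0.18 for HNRNPLL, -0.60 for HNRNPR, 0.60 for PNN, 0.98 for SF1, 0.42 for SRSF8 and 0.0864 for SYF2. These settings read other probe sets of the same gene. On median centring SF3B2 was 0.00399 and U2AF2 0.0149, and on quantile normalization SNRPD2 was 0.0346. The cause was not tested.

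The groups share replicate numbers, but the mean correlation of same-numbered deviations was -0.00388, so the arrays share only a number. With the replicate block 31 member genes rose and 12 fell, and 76 probe sets rose and 30 fell. The calls for PRPF18 and U2AF2 were lost. Dim probe sets limit the precision: the SE was 0.21 for SRSF12, with signals of 106 to 152.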
